A study of Homo sapiens with 6 samples.

Results

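Peroxiredoxins and thioredoxins were examined in COV434 cells treated with 4HC. The rule named 10 genes, PRDX1 to PRDX6, TXN, TXN2, TXNRD2 and TXNIP, and picks their rows by symbol, with no threshold on a measured value. Of these, 8 had a row among the 16798 coding genes of the table, and all 8 passed the filter on low counts. PRDX2 and TXNIP were not analysed here. Total RNA of 6 samples of COV434, a human line that the labels call granulosa cells (GCs), was sequenced. The 3 control samples carry the genotype label WT and no treatment label, and the 3 samples of the 4HC group carry the genotype label CTX and the treatment label CTX-Induced. The treatment text, 15 µM of 4HC for 24 h, is the same on all 6 samples and was taken here to describe the 4HC group alone. Whether the controls received a vehicle is not given in the sources used here. 4HC is a preactivated form of cyclophosphamide (CTX). All samples came from 1 cell line grown under the same conditions, and the sources do not say whether the replicates were separate cultures, so that p-values measure only the spread between these samples.

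Peroxiredoxins are thiol peroxidases that reduce hydrogen peroxide and organic hydroperoxides with a reactive cysteine. PRDX1, PRDX2, PRDX3 and PRDX5 are recycled by thioredoxin, whereas PRDX6 uses glutathione. Oxidized thioredoxin is in turn reduced by a thioredoxin reductase, a selenoprotein that draws its electrons from NADPH. The cytosol holds TXN and its reductase TXNRD1, and mitochondria hold a separate pair, TXN2 and TXNRD2. PRDX1, PRDX2 and PRDX6 are mainly cytosolic, PRDX3 is mitochondrial, PRDX4 lies in the endoplasmic reticulum, and PRDX5 is found in mitochondria, peroxisomes and the cytosol. The system works beside glutathione in limiting peroxides. The study concerned ferroptosis, a cell death driven by lipid peroxides.

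The promoters of TXN, PRDX5 and PRDX3 are shown because the first 2 genes rose after 4HC and PRDX3, the mitochondrial peroxidase of high expression, was not called. RefSeq promoters of GRCh38.p14 were found for 5 of the 8 genes, and of the PRDX5 windows the one farthest upstream is shown. Each window holds 250 bases before the start site and 50 from it on, written 5′ to 3′ on the strand of the gene. Capitals mark matches on either strand to 6 motifs. They are TGACNNNGC, the core of the antioxidant response element bound by NRF2, the E-box with the letters CACGTG, the CCAAT box, which its name spells out, the GC box bound by SP1 with the letters GGGCGG, the TATA box, searched for as TATAAA, and the NRF1 motif.
TXN, chr9:110256458-110256757, minus strand: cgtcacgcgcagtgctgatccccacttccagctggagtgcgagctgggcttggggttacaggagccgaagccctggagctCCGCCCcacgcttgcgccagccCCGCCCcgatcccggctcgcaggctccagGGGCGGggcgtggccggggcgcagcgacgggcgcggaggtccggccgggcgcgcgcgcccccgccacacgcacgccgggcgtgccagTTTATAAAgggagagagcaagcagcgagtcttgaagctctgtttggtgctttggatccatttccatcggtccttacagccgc
PRDX5, chr11:64317871-64318170, plus strand: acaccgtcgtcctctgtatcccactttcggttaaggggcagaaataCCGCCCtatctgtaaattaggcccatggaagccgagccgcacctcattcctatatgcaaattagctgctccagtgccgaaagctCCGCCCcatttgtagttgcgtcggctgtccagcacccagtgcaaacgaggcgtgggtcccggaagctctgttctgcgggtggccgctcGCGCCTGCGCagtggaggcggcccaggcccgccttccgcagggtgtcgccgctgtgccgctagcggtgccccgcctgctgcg
PRDX3, chr10:119178763-119179062, minus strand: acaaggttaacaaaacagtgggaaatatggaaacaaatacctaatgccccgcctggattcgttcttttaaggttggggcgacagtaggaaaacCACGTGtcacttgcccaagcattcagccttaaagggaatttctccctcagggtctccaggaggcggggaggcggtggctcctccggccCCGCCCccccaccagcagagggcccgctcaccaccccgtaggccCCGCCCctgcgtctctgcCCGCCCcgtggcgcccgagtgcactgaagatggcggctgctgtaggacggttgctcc
The TXN window had a TATA box from base -30 to -25 before the start site (counted as 0), overlapped by a match on the opposite strand from -32 to -27, and 3 GC boxes. A TATA box was held by 11.5% of all 35116 promoters of this length and a GC box by 45%. The PRDX5 window had 2 GC boxes and an NRF1 match from -32 to -23, a motif held by 5.78% of promoters. The PRDX3 window had 3 GC boxes and an E-box from -157 to -152, a motif held by 7.26% of promoters. TGACNNNGC, which 13.3% of promoters held, and CCAAT, which 34.6% held, were not among the letters of these 3 windows. The TXN window was richer in G and C, at 70%, than those of PRDX5 (63.3%) and PRDX3 (61.3%), against a median of 58.7% over all promoters.

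The deposited expected counts, RSEM's estimates of the reads of a gene, summed to 16133786 to 16702316 per sample. They were tested with edgeR's quasi-likelihood test after TMM normalization. Values are given as TMM-normalized CPM, which divide the counts of each library by its total times a TMM factor (0.9928 to 1.012). Replicates were not copies of each other, since their counts varied beyond sampling noise in each pair (chi-square of 1.7 to 2.46 per gene). Of the granulosa markers, 4 of the 11 with a row reached 1 TPM, a level scaled to gene length, in any sample. FOXL2, FSHR and CYP19A1, which define granulosa cells, stayed at or below 0.11, 0.01 and 0.02 TPM in all samples. The 4 that reached 1 TPM were WT1, at 103 to 135 TPM, HSD17B1, AMH and INHA. HSD17B1 was at 19.2 to 24.6 TPM, AMH at 3.94 to 6.73 TPM and INHA at 0.72 to 1.73 TPM. The other 7 of the 11, NR5A1 and STAR among them, stayed under 1 TPM in every sample. Most markers of the labelled cell type were thus not seen at that level, and the identity of the line was not tested. Of 2 chromatin factors taken here as lost in COV434, SMARCA2 was at most 0.07 TPM and SMARCA4 at 6.27 to 8.5 TPM. The summed TPM of the granulosa markers was 159 to 167 in control and 132 to 138 in 4HC, most of it from WT1. The summed TPM of 2 endothelial markers was at most 0.06, that of 3 theca or luteal markers at most 1.34, that of 2 immune markers at most 3.16, that of 4 epithelial markers at most 8.4, that of 4 stromal markers at most 13.3 and that of 3 oocyte markers at most 22.0. The part of these levels in the results was not tested. In bulk RNA, a change in the make-up of the culture and a change of RNA per cell cannot be told apart.

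4HC raised 4 of the 8 genes by 6.72% to 15.2%. Both thioredoxins, TXN and TXN2, and the peroxiredoxins PRDX1 and PRDX5 passed the test upwards (adjusted p-value under 0.05), where 19.2% of the 12368 genes tested were called higher. PRDX3, PRDX4, PRDX6 and TXNRD2 did not pass the test. At the same threshold 0 of the 8 were lower, where 17.1% of all genes were called lower. No gene of the 8 was lower at an unadjusted p-value under 0.05 in edgeR (0 genes), and DESeq2 called 0 lower. The median log2 fold change over the 8 genes was 0.09, against 0.0047 over all genes tested. None of the 8 reached the 2-fold change that the study's methods used with a p-value under 0.05 (0 of 8), where 1.15% of all genes did.

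**Figure D1:**
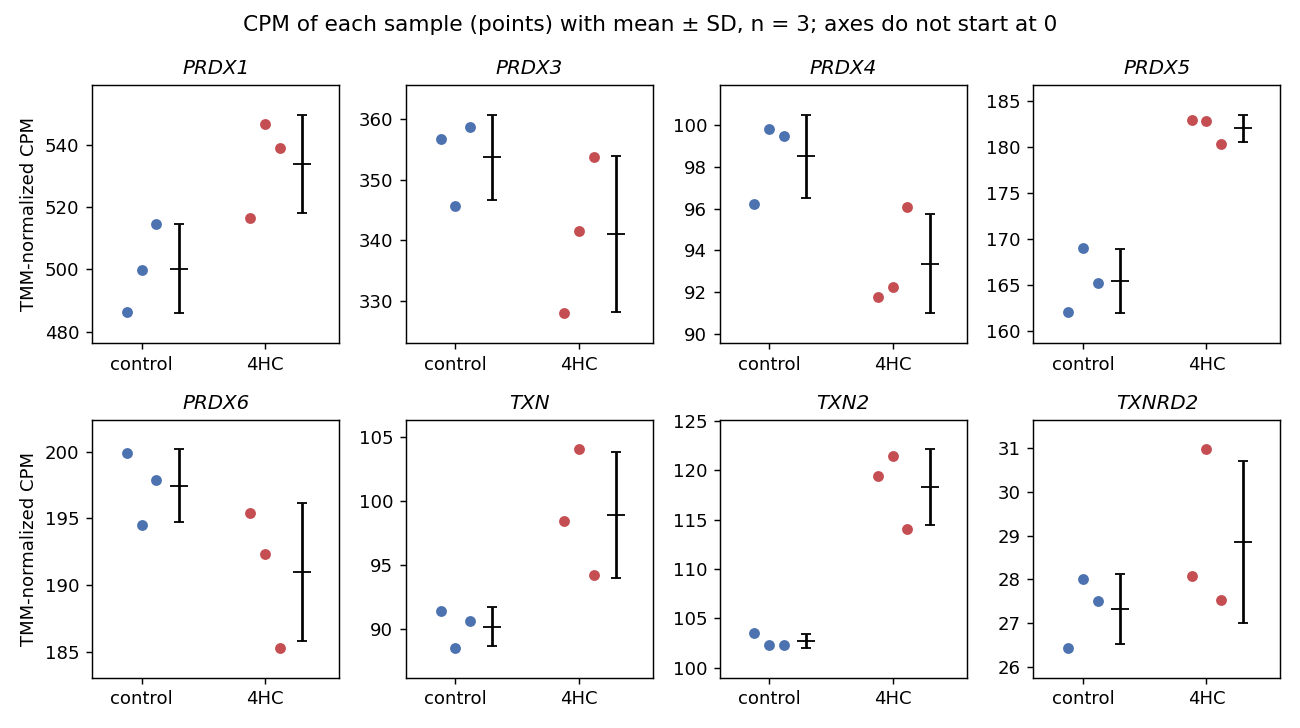
TMM-normalized CPM (vertical axis, a separate range for each gene that does not start at 0) of the 8 genes in the control and 4HC groups. Points are single samples and bars the mean ± SD (n = 3). All 3 points of 4HC lie above all 3 of control for PRDX1, PRDX5, TXN and TXN2, and below them for PRDX4.

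TXN2, the thioredoxin of mitochondria, had the largest change of the 8 genes. TXN2 (NCBI Gene 25828, chromosome 22 of GRCh38, 36461676 to 36481672) had 103.5, 102.3 and 102.3 CPM in the controls, in order of replicate number, against 119.4, 121.4 and 114.0 CPM with 4HC. The controls lay close together and all 3 samples of 4HC lay above them. The mean rose from 103 ± 0.695 to 118 ± 3.84 CPM (SD, n = 3 per group). On the log2 scale the difference was 0.20 with a standard error of 0.041 and a 95% interval of 0.12 to 0.29 (edgeR, adjusted p = 5.83e-05). This was the 81.6th percentile of all genes tested, and 70.9% of the genes called higher had a larger change.

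TXN (NCBI Gene 7295, chromosome 9, 110243810 to 110256507), the cytosolic thioredoxin whose promoter is shown above, was measured at 91.5, 88.6 and 90.6 CPM in control and at 98.4, 104 and 94.2 CPM in 4HC. The groups did not overlap, and the spread in 4HC (SD 4.93) was wider than in control (SD 1.49). The log2 difference was 0.13 with a standard error of 0.043 (edgeR, adjusted p = 0.013). Without 4HC replicate 2, its highest sample, the log2 fold change was 0.09 and the call was lost (adjusted p = 0.151 in edgeR). GENCODE release 29 lists 7 pseudogenes of TXN, so that reads of TXN can match more than 1 place in the genome.

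TXNRD2 (NCBI Gene 10587, chromosome 22, 19875522 to 19941818), the reductase that recycles TXN2, was the least expressed of the 8. It was measured at 26.4, 28.0 and 27.5 CPM in control and at 28.1, 31.0 and 27.5 CPM in 4HC. The groups overlapped, with 4HC replicate 3 among the controls and 4HC replicate 1 barely above them. The log2 difference was 0.08 with a standard error of 0.063 (edgeR, adjusted p = 0.351), and its 95% interval of -0.05 to 0.21 takes in the value of TXN2. TXNRD1, the cytosolic reductase, is not among the 10 genes of the rule. It was measured at 333 ± 10.8 CPM in control and 330 ± 9.5 CPM in 4HC, and its log2 fold change of -0.01 (adjusted p = 0.775 in edgeR) changed sign with the scaling, to 0.0061 with library size alone.

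PRDX1 (NCBI Gene 5052, chromosome 1, 45511051 to 45522972), the most abundant peroxiredoxin here, was measured at 486.2, 499.7 and 514.6 CPM in control and at 516.3, 546.5 and 538.8 CPM in 4HC. The groups did not overlap, but the highest control and the lowest 4HC sample nearly touched. The log2 difference was 0.09 with a standard error of 0.032 (edgeR, adjusted p = 0.0178). On the deposited TPM values the groups overlapped and limma did not call the gene (log2 fold change 0.08, adjusted p = 0.0764). The call was also lost without control replicate 1, 4HC replicate 2 or 4HC replicate 3 (adjusted p = 0.141, 0.123 and 0.0521 in edgeR). PRDX1 overlaps MMACHC on the opposite strand, which had 25.6 ± 1.62 CPM in control and 22.7 ± 1.35 CPM in 4HC. Whether the counting used strand is not given in the sources used here.

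PRDX5 (NCBI Gene 25824, chromosome 11, 64318121 to 64321811), which also reduces peroxynitrite, was measured at 162, 169 and 165 CPM in control and at 183, 183 and 180 CPM in 4HC. All 3 samples of 4HC lay well above the controls and close to each other. The log2 difference was 0.14 with a standard error of 0.036 (edgeR, adjusted p = 0.00194). PRDX1 and PRDX5 were also among the hub genes that the study picked on these same samples, by a score in a protein network. The study's text states no direction for either gene, and its pick is not independent evidence. The study took its hubs from its differentially expressed genes, but neither gene reached its 2-fold threshold here (fold changes of 1.067 and 1.1).

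PRDX3 (NCBI Gene 10935, chromosome 10, 119167720 to 119178812), the mitochondrial peroxidase that TXN2 reduces, was measured at 357, 346 and 359 CPM in control and at 328, 341 and 354 CPM in 4HC. The groups overlapped, with 4HC replicate 3 among the controls. The log2 difference was -0.05 with a 95% interval of -0.12 to 0.01 (edgeR, adjusted p = 0.226). PRDX4 (NCBI Gene 10549, chromosome X, 23659373 to 23692301), a peroxidase that takes part in oxidative protein folding, was measured at 96.2, 99.8 and 99.5 CPM in control and at 91.7, 92.3 and 96.1 CPM in 4HC. Its highest 4HC sample lay just under its lowest control, and the test did not call it (log2 fold change -0.08, adjusted p = 0.148 in edgeR). PRDX6 (NCBI Gene 9588, chromosome 1, 173477303 to 173488815), which also has phospholipase activity, was measured at 200, 195 and 198 CPM in control and at 195, 192 and 185 CPM in 4HC. Its groups overlapped (log2 fold change -0.05, adjusted p = 0.308 in edgeR). Groups did not overlap in 5 of the 8 genes, where this held for 45.3% of all genes tested, and in 4 of them 4HC was the higher group, where this held for 23.4%. GENCODE release 29 lists 4 pseudogenes of PRDX3, 1 of PRDX4, 1 of PRDX1 and 0 of PRDX5, PRDX6, TXN2 and TXNRD2.

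**Figure D2:**
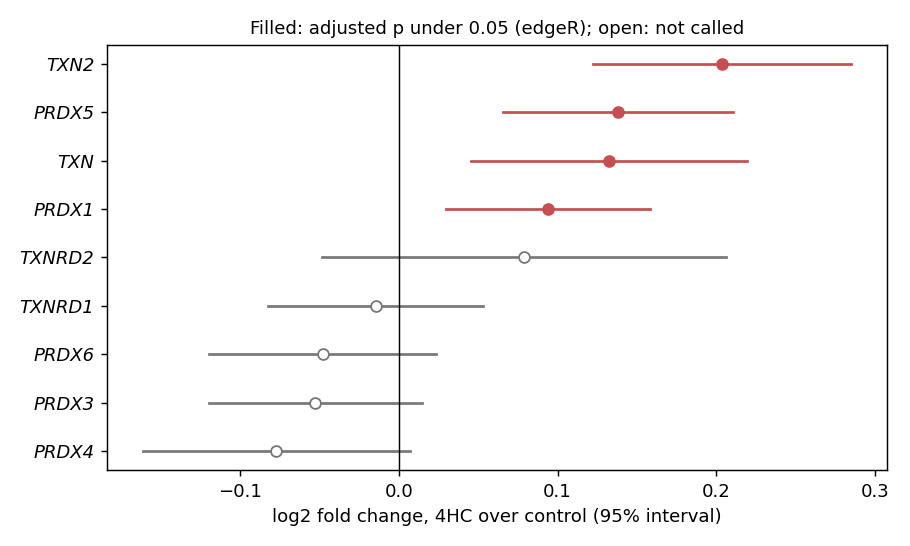
Log2 fold change of 4HC over control (horizontal axis) with its 95% interval for the 8 genes and TXNRD1, from edgeR. Filled points passed an adjusted p-value of 0.05, and their intervals lie above 0, while the intervals of the 5 open points include 0.

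Levels of the genes were compared by the deposited TPM. PRDX1 was highest with 1189 ± 38.8 TPM in control and 1259 ± 30.4 TPM in 4HC, in the 99.4th percentile of all genes. PRDX5 (478 ± 7.03 TPM in control) and PRDX3 (438 ± 11.8 TPM in control) came next, and their ranges did not meet in either group. TXN followed at 315 ± 7.22 TPM in control and 342 ± 15.3 TPM in 4HC. PRDX4 (231 ± 4.78 TPM in control) and PRDX6 (220 ± 4.29 TPM in control) were neighbours whose ranges did not overlap in control but did in 4HC. TXN2 was at 154 ± 1.8 TPM in control and 176 ± 5.63 TPM in 4HC, beside TXNRD1 at 156 ± 6.0 and 153 ± 4.04 TPM. The ranges of this pair overlapped in control, whereas in 4HC all 3 values of TXN2 were higher. TXNRD2 was lowest, with 24.9 ± 0.784 TPM in control and 26.1 ± 1.49 TPM in 4HC. The order was thus the same in both groups except for TXN2 and TXNRD1.

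**Figure D3:**
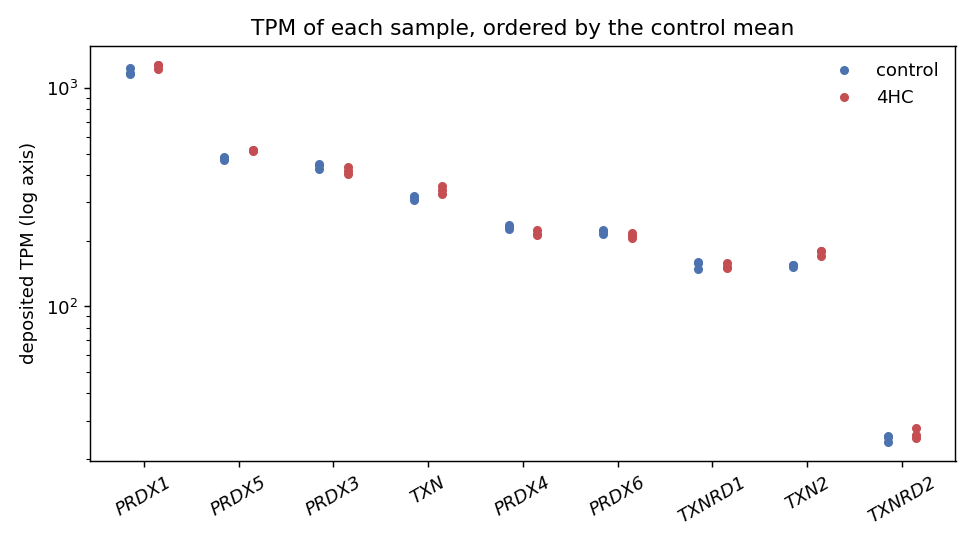
Deposited TPM (log axis) of each sample for the 8 genes and TXNRD1, ordered by the control mean. The levels run from PRDX1, at 1157 to 1280 TPM, down to TXNRD2, at 24.0 to 27.8 TPM.

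Ratios of TPM within a sample do not depend on the scaling of that sample, and those given here were chosen after the values were seen and are a description with no test. The ratio of TXN2 to PRDX3, the mitochondrial thioredoxin and the peroxidase it reduces, was 0.351, 0.357 and 0.345 in control and 0.441, 0.43 and 0.389 in 4HC. It was 19.6% higher on average in 4HC without overlap of the groups. The ratio of PRDX5 to PRDX3 was 1.06 to 1.14 in control and 1.19 to 1.29 in 4HC, also without overlap. TXNRD1 per TXN was 0.486 to 0.502 in control and 0.426 to 0.483 in 4HC, so that each 4HC sample had less reductase transcript for its TXN transcript than each control. TXNRD2 per TXN2 was 0.154 to 0.168 in control and 0.144 to 0.155 in 4HC, and its groups overlapped. TXN per PRDX1 overlapped as well, with 0.259 to 0.276 in control and 0.257 to 0.279 in 4HC. The summed TPM of the 5 peroxiredoxins was 2557 ± 53.7 in control and 2628 ± 36.5 in 4HC with overlapping groups. PRDX1 made up 46.0% to 47.1% of this sum in control and 47.3% to 48.4% in 4HC, and PRDX3 16.8% to 17.6% and 15.7% to 16.4%.

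**Figure D4:**
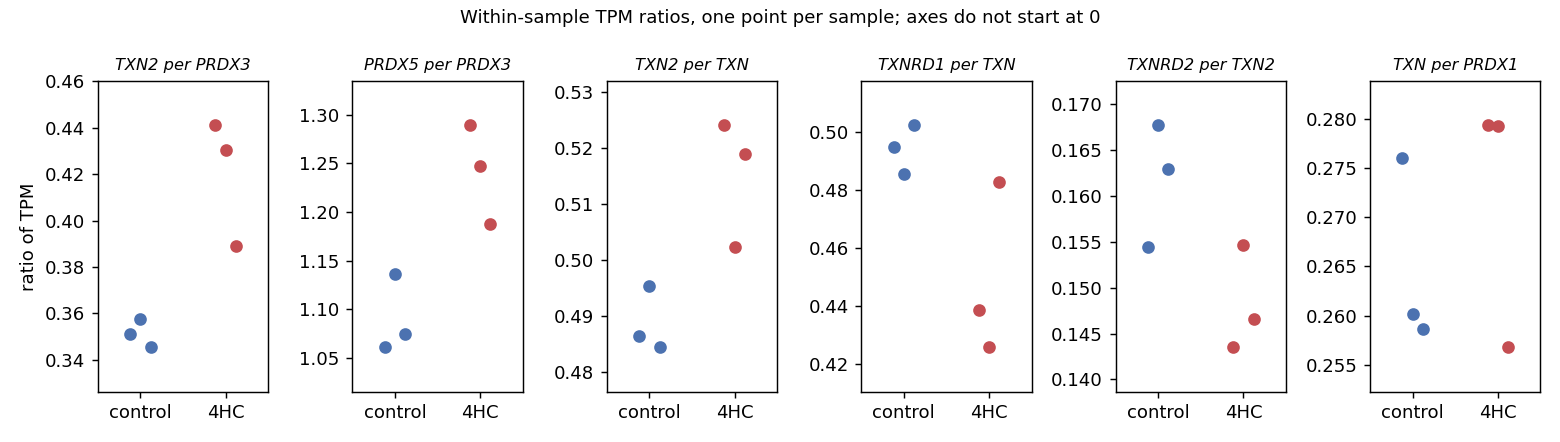
Ratios of deposited TPM within each sample (vertical axes, which do not start at 0) for 6 pairs of genes, with 1 point for each control and 4HC sample. The groups are apart for TXN2 per PRDX3, PRDX5 per PRDX3, TXN2 per TXN and TXNRD1 per TXN, and overlap for TXNRD2 per TXN2 and TXN per PRDX1.

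The authors also deposited expected counts of transcripts, 21 of which belonged to the 8 genes. A single transcript held most of the reads of each gene, with mean shares in control of 98.9% for PRDX1 (NM_181697), 99.2% for PRDX3 (NM_006793), 99.8% for TXN (NM_003329), 89.5% for TXN2 (NM_012473), 88.3% for PRDX5 (NM_012094) and 85.4% for TXNRD2 (NM_006440). PRDX4 and PRDX6 had all their reads on 1 transcript. In edgeR's test over 42216 transcripts, 0.706% were called higher in 4HC and 1.29% in either direction, and 1 of the 18 tested transcripts of these genes was called. This was NM_012473 of TXN2, at 92.6 ± 0.375 CPM in control and 109 ± 2.68 CPM in 4HC (log2 fold change 0.23, adjusted p = 0.0292). With any 1 of the 6 samples left out it kept a log2 fold change of 0.21 to 0.24 and lost the call (adjusted p = 0.0978 to 0.145 in edgeR). The share of NM_012473 in TXN2 was 88.4% to 90.3% in control and 89.1% to 93.2% in 4HC, with overlap. The other TXN2 transcripts, XM_011530111 and XM_006724226, had 111 to 149 and 35.5 to 51.2 expected counts in control and 93.6 to 173 and 30.8 to 42.4 in 4HC. In TXNRD2, NM_001282512 and NM_001352303 ran from 0 to 42.8 expected counts in control and from 0 to 50.2 in 4HC, and where one was high the other was at or near 0. The main transcripts of PRDX5 and PRDX1 had log2 fold changes of 0.14 and 0.09, as did their genes, and were not called (adjusted p = 0.106 and 0.325 in edgeR). DESeq2 called NM_012094 of PRDX5 (adjusted p = 0.00147) and NM_012473 of TXN2 (adjusted p = 4.64e-07), among 1465 transcripts it called higher.

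The 5 genes whose log2 CPM over the 6 samples was most like that of TXN2 were DHRS1, RBM38, HAUS5, VRK1 and GJD3, with Pearson r between 0.997 and 0.998 among 10374 genes searched. The 6 points form 2 groups, and all 5 genes were higher in 4HC. The log2 fold changes of these genes were 0.22 for DHRS1, 0.42 for RBM38, 0.47 for HAUS5, 0.28 for VRK1 and 0.63 for GJD3.

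The other genes of the thioredoxin system were taken from 6 lists with 53 genes, of which 50 were tested, and 8 were higher and 8 lower at an adjusted p-value under 0.05, where 36.4% of all genes were called in either direction. In the list of thioredoxin reductases, SRXN1 and sestrins, 2 of 6 genes rose, where 19.2% of all genes were called higher. These 2 were sestrins. SESN1 and SESN2, stress-induced sestrins with ties to peroxiredoxin repair and to mTORC1 control, rose from 89.0 ± 1.79 to 164 ± 1.77 CPM and from 83.1 ± 5.21 to 133 ± 5.39 CPM (log2 fold changes 0.88 and 0.68). SRXN1, the sulfiredoxin that reduces overoxidized peroxiredoxins, had a log2 fold change of -0.02 and was not called (adjusted p = 0.801 in edgeR), and neither were TXNRD1, TXNRD3 and SESN3.

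Among enzymes that take electrons from thioredoxin and its clients, 3 of 9 rose, against 19.2% of all genes, and 2 fell, against 17.1%. The 3 were the subunits of ribonucleotide reductase, which makes deoxynucleotides and can be recharged by thioredoxin. RRM2 rose from 245 ± 6.28 to 437 ± 9.11 CPM (log2 fold change 0.84), RRM2B from 110 ± 2.74 to 180 ± 8.41 CPM (0.71) and RRM1 from 275 ± 9.43 to 407 ± 12.1 CPM (0.57). These changes were larger than that of any of the 8 peroxiredoxin and thioredoxin genes. The lower genes, named after their values were seen, were MSRA, a methionine sulfoxide reductase (log2 fold change -0.68), and APEX1, a DNA repair nuclease that also keeps transcription factors reduced (log2 fold change -0.17). MSRA had few reads, at 3.79 CPM in control and 2.36 CPM in 4HC, whereas APEX1 was at 294 and 262 CPM. The 3 MSRB genes and MAP3K5, the kinase ASK1 that reduced thioredoxin holds inactive, were not called. MAP3K5 was near the floor, at 0.80 CPM in control and 0.92 CPM in 4HC, and its 95% interval was wide (-0.47 to 0.88).

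Among proteins with a thioredoxin fold, 2 of 15 rose, against 19.2% of all genes, and 1 fell, against 17.1%. TXNDC16 rose from 24.3 ± 1.96 to 29.5 ± 0.63 CPM (log2 fold change 0.28) and NXN, nucleoredoxin, from 24.7 ± 0.95 to 28.1 ± 1.5 CPM (0.19), a call that DESeq2 did not make (adjusted p = 0.104). TXNDC5, a disulfide isomerase of the endoplasmic reticulum, fell from 340 ± 12.5 to 301 ± 4.05 CPM (log2 fold change -0.17). In the list of oxidative folding, where PRDX4 works, 1 of 8 tested genes rose and 2 fell, against the same shares. PDIA3 and PDIA6, protein disulfide isomerases, fell from 434 ± 9.82 to 390 ± 5.54 CPM and from 519 ± 7.54 to 468 ± 6.76 CPM (log2 fold changes -0.16 and -0.15). ERO1B, an oxidase of these isomerases, rose from 5.9 ± 0.93 to 7.53 ± 0.547 CPM (log2 fold change 0.35), and DESeq2 did not call it (adjusted p = 0.112).

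Of 9 tested relatives and regulators of TXNIP, 3 fell and 0 rose in edgeR, where 17.1% of all genes were called lower and 19.2% higher. The median log2 fold change of the 9 genes was 0.0073. DESeq2 called 2 of the 9 lower and 0 higher. ARRDC1 was the 1 gene higher at an unadjusted p-value under 0.05 in edgeR, and 4 genes were lower, MLX among them. ARRDC3 and ARRDC4, α-arrestins of the same family as TXNIP, fell from 53.6 ± 2.63 to 45.0 ± 3.01 CPM and from 33.8 ± 2.13 to 29.3 ± 1.3 CPM (log2 fold changes -0.25 and -0.20). The call of ARRDC4 was lost without control replicate 3 (adjusted p = 0.0683 in edgeR). ITCH, a ubiquitin ligase for TXNIP, fell from 99.5 ± 1.55 to 92.2 ± 4.87 CPM (log2 fold change -0.11), a call that DESeq2 did not make (adjusted p = 0.0735). MLX, MLXIP and MLXIPL, the transcription factors that drive TXNIP and ARRDC4 in response to glucose, were not called. MLXIPL had few reads, at 0.835 CPM in control and 1.28 CPM in 4HC, with a log2 fold change of 0.61 (adjusted p = 0.116 in edgeR). Of the 3 tested glutaredoxins, which do a related task with glutathione, edgeR and DESeq2 called 0, and 1, GLRX3, was lower at an unadjusted p-value under 0.05 in edgeR.

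**Figure D5:**
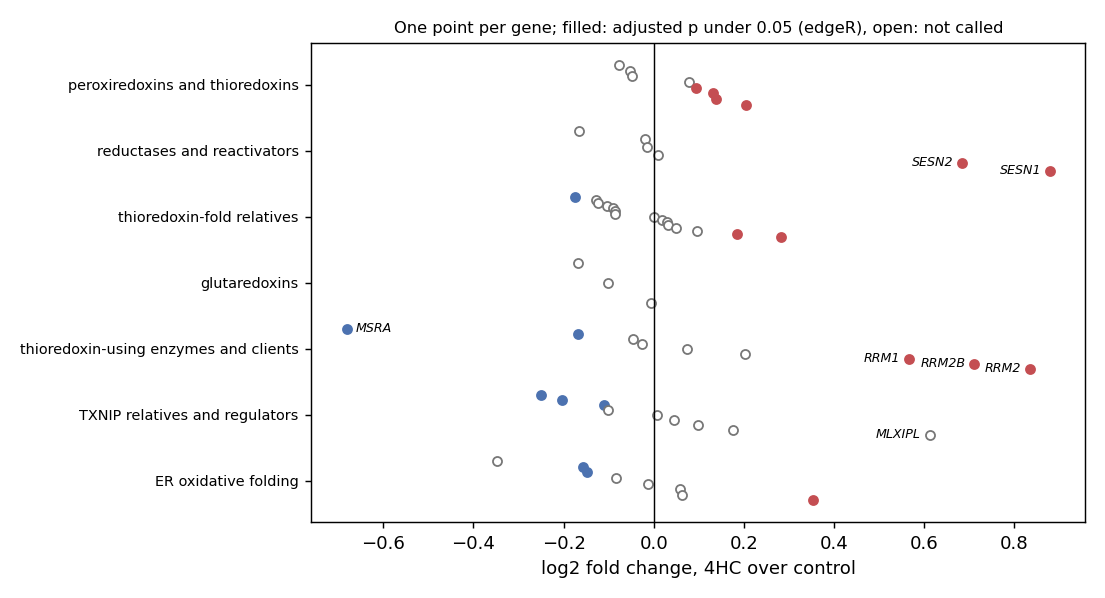
Log2 fold change of 4HC over control (horizontal axis) of every tested gene in the 8 peroxiredoxin and thioredoxin genes and the 6 lists of related genes. Filled points passed an adjusted p-value of 0.05 in edgeR. The 8 genes lie between -0.08 and 0.20, while RRM2, RRM2B, RRM1, SESN1 and SESN2 lie between 0.57 and 0.88, and the open point among them is MLXIPL at 0.61.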

How the data were processed

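Bulk RNA-seq of 3 control and 3 4HC samples was analysed. Per the labels, reads were filtered with SOAPnuke, and the submitters' processing notes name HISAT2, Bowtie2, RSEM 1.3.1 and the build GRCh38.p13 without their roles. The authors deposited unnormalized expected counts of 16798 genes and 79213 transcripts, TPM scaled to length and to a fixed sum, and FPKM scaled to length and library size. A second deposited gene table was identical in its 27 columns, and the authors' DESeq2 fold changes and p-values were not used.

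Expected counts were rounded, filtered with filterByExpr, normalized by TMM and compared by the quasi-likelihood test of edgeR 4.0.16 (R 4.3.3), with group as the only term and Benjamini-Hochberg adjustment over the 12368 genes or 42216 transcripts tested. The scripts were tested on simulated data. Totals of 16133786 to 16702316 set the precision. Alternatives were DESeq2 1.42.0, its size factors in edgeR, library size alone, other filters, a replicate block, limma 3.58.1 on log2(TPM + 1), log2(TPM + 0.1) and log2(FPKM + 1), and leaving out each sample.

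The 10 genes and the 6 lists were chosen with earlier results of these data known, although the rule that finds their rows uses the symbol alone. Named were all analysed genes of the rule, TXNRD1, up to 3 called genes of at least 5 CPM with the largest change in each list, and the 5 genes most like TXN2. MSRA (under 5 CPM), APEX1, the overlapping gene MMACHC, and uncalled list genes were named after their values were seen. Promoters came from RefSeq on GRCh38.p14, and overlaps and pseudogenes from GENCODE 29.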

Additional observations from a re-analysis of the deposited data

How the results depend on the processing

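TXN2 and PRDX5 kept their direction and their call under all 15 alternatives, with log2 fold changes of 0.18 to 0.23 and 0.12 to 0.16. PRDX1 and TXN kept their direction, with 5 and 1 of 15 alternatives losing the call, and the number of the 8 genes called higher ran from 2 to 4 with a sample left out, 2 being without 4HC replicate 2. TXNRD1, not called in any of them, ran from -0.042 to 0.0012 with a sample left out and changed sign with library size alone (0.0061), with limma on log2(FPKM + 1) (0.0045) and without control replicate 3 (0.0012) or 4HC replicate 1 (0.0005). Calls were also lost for ITCH in 8, ERO1B in 6, NXN in 4 and ARRDC4 in 2 of 15 alternatives. With limma on log2(FPKM + 1), 1343 genes in all were lower in 4HC, against 2118. Library size alone as scaling shifted the median log2 fold change by 0.021 and gave 2725 genes higher and 1735 lower, against 2379 and 2118. The cause was not tested.

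The numbers of transcripts called depended most on the settings. They were 298 higher and 248 lower, against 1465 and 1496 with DESeq2, 502 and 430 with a minimum of 10 counts in every sample, and 46 to 83 higher and 12 to 49 lower with a sample left out. With the replicate number as a block, edgeR called 0 transcripts higher and 0 lower, and NM_012473 of TXN2 kept its log2 fold change of 0.23 but lost its call (adjusted p = 0.209). Whether same-numbered samples were paired is not given in the sources used here. Their deviations from the group means correlated by 0.0087, 0.069 and 0.03, and not every sample correlated best with its own number. Deviations within a group of 3 sum to 0, so that these values cannot decide whether the samples were paired. With the replicate block 2259 genes were higher and 1954 lower, with 4 of the 8 genes still higher. The counting program divides the reads of a gene among its transcripts, so that transcript values are less certain than gene values. Why NM_001282512 and NM_001352303 of TXNRD2 fell to 0 in some samples and not in others was not tested. Single outlying samples were not tested for in groups of 3.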
